A study of Mus musculus with 12 samples.

Results

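Sensory stimulation at 40 Hz was compared with no stimulation in the hippocampus of mice that were given cisplatin, a platinum drug used in chemotherapy. The cells were those of the 3 Cisplatin stim and the 3 Cisplatin nonstim libraries, taken by the library name that the authors recorded for each cell, and they came to 8977 of the 19834 cells of the series, in 6 of its 12 libraries. Every animal was a female C57/BL6J mouse of 9 weeks, and both groups described here had cisplatin injections, and stimulation is the labelled difference between them. The stimulated mice received LED light flicker and pulsed sound, both at 40 Hz, for 1 h a day over 21 days that began with the first injection, and the hippocampi of all groups were taken on day 22. The remaining 6 libraries repeat the comparison in mice injected with PBS. They serve as a reference and for the test of whether the response to stimulation differed between the drug arms. They also enter each main fit, where they share the filter on low counts, the scaling, the estimate of the spread and the batch term. The calls in cisplatin-treated mice thus depend in part on them. Library 1 of each group holds 2 hippocampi of 1 animal, and libraries 2 and 3 hold 4 hippocampi pooled from 2 animals. Library 1 of all groups also carries a batch label that differs from that of libraries 2 and 3.

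Cisplatin binds DNA and crosslinks it, and cells answer such lesions partly through the transcription factor p53, whose best known target is the cell cycle inhibitor p21, encoded by Cdkn1a. Oligodendrocytes make the myelin sheaths of axons, a membrane rich in cholesterol and in galactolipids, and they also feed axons and take up ions and transmitter. Many of their genes answer to glucocorticoids, the adrenal stress hormones, through a nuclear receptor that binds DNA and induces genes such as Fkbp5, Zbtb16, Klf9 and the metallothioneins. Sensory stimulation at 40 Hz drives rhythmic firing at that frequency in sensory cortex and has been reported to reach the hippocampus.

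The 3 Cisplatin nonstim libraries held 1930, 2709 and 1110 cells and the 3 Cisplatin stim libraries held 1105, 992 and 1131 cells, with 8027154 to 17656020 UMIs (unique molecular identifiers, each marking 1 captured transcript) per nonstim library and 6037875 to 8219853 per stim library. The authors' cell type names were used. The marker lists of oligodendrocytes, their precursors, microglia, astrocytes, endothelium and choroid plexus cells were each high in their own cells. The 6 oligodendrocyte markers summed to between 42690 and 47260 CPM (counts-per-million scale) in oligodendrocytes of these 6 libraries. The cells that the authors named Immune, below other immune cells, held microglia markers at 15010 to 22011 CPM (nonstim) and 15054 to 23981 CPM (stim). Their 6 tested markers of other immune cells summed to 4702 to 8654 CPM (nonstim) and 8382 to 48461 CPM (stim). The median share of mitochondrial UMIs per cell was 13.9% and 17.6% in the nonstim and stim library of the first batch and between 4.33% and 5.12% in the 4 libraries of the second. Over all 12 libraries, 56 barcodes occurred in more than 1 library, with at most 10 shared by any pair. No cell was a predicted doublet in the authors' table, and the highest doublet score was 0.0970.

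UMIs were summed per library and cell type, and levels are given as CPM of a cell type's UMIs with TMM scaling. A gene was called when edgeR's quasi-likelihood test, with the batch as a covariate, gave a Benjamini-Hochberg adjusted p under 0.05 within the cell type. Differences are log2 fold differences, stim minus nonstim, with their standard errors. Where 2 sets of 3 levels are given, those of nonstim libraries 1, 2 and 3 come first and those of stim libraries 1, 2 and 3 second. Of 69488 gene and cell type combinations tested in 9 cell types, 136 (0.196%) were called, 101 higher and 35 lower with stimulation. Oligodendrocytes held 100 of them (0.991% of 10094 genes tested), 73 higher (0.723%) and 27 lower (0.267%). Microglia held 13 (0.131%), endothelium 13 (0.16%), oligodendrocyte precursor cells (OPCs) 4 (0.0521%), astrocytes 3 (0.0295%) and pericytes 3 (0.0455%), while neurons, choroid plexus cells and other immune cells held 0. In the 6 PBS libraries the same stimulation gave 0 calls in any of the 9 types by the same test, with between 65 and 324 genes a type at an unadjusted p under 0.05. For pericytes PBS stim library 1 was left out, as it held too few of these cells.

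The oligodendrocyte count depended on the libraries and on the treatment of the batches. It was 29 without Cisplatin nonstim library 1, 35 without Cisplatin nonstim library 3, 44 without Cisplatin stim library 1, 44 in the 6 cisplatin libraries with the replicate number as a block, and 83 in the second batch alone. Leaving out cells with over 10% mitochondrial UMIs gave 64, of which 62 were among the 100. The oligodendrocytes of the nonstim library of the first batch had a median of 3090 UMIs and 31.6% mitochondrial UMIs a cell, against 7049 UMIs and 13.6% in the stim library of that batch. In the second batch these medians lay between 7077 and 8789 UMIs and between 6.03% and 6.91%. The part that depth and mitochondrial share have in the first-batch values was not tested, and the second-batch libraries, which are alike in both, are given beside them throughout. Of the 136 calls, 21 were kept whichever of the 12 libraries was left out, and the oligodendrocyte genes among them are described first in each group of genes. For a gene whose call was lost in such a fit, the libraries are named (nonstim 1 for Cisplatin nonstim library 1, and so on) with the highest adjusted p.

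Cdkn1a rose most clearly. It encodes p21, which binds cyclin-dependent kinases and holds cells out of division, and it lies at chr17:29090976-29100727, plus strand (GRCm38). Oligodendrocytes of the nonstim libraries 1, 2 and 3 had 50.4, 45.8 and 15.7 CPM, and those of the stim libraries 1, 2 and 3 had 962, 263 and 242 CPM. Every stim library lay above every nonstim library, and the first-batch stim library stood far above the other two. The 6 PBS libraries had means of 3.203 (nonstim) and 2.53 (stim) CPM. The difference between the cisplatin groups was 3.44 on the log2 scale (SE 0.32, edgeR adjusted p = 1.06e-05), and it was 2.92 in the second batch alone and 3.33 without cells over 10% mitochondrial UMIs. Without nonstim 2 it was 4.08. Beside it, cisplatin alone (Cisplatin nonstim against PBS nonstim, which shares the nonstim libraries) gave 3.45.

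The window of 250 bases before the Cdkn1a start that RefSeq gives on GRCm38.p6 (chr17:29090729-29090978, plus strand) is shown because Cdkn1a is the gene with the smallest p and belongs to both the p53 and the glucocorticoid list. Capitals mark CATG, any 6 bases and CATG again, the spaced core of a p53 response element, found 48 bases before the start. RefSeq gives a second Cdkn1a start, whose window (chr17:29093519-29093768) does not hold these letters.

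Cdkn1a: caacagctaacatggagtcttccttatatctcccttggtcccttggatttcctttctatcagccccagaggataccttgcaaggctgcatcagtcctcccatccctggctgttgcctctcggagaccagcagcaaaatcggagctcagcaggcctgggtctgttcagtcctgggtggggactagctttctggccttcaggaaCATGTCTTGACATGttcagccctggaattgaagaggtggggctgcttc

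On both strands, these letters occur in 0.490% of all 32851 promoter windows of that length. The letters of a glucocorticoid response element, GNACA, any 3 bases and TGTNC, do not occur in this Cdkn1a window and occur in 0.387% of all windows. The p53 letters were chosen after this window had been read, so their presence is a description.

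**Figure D1:**
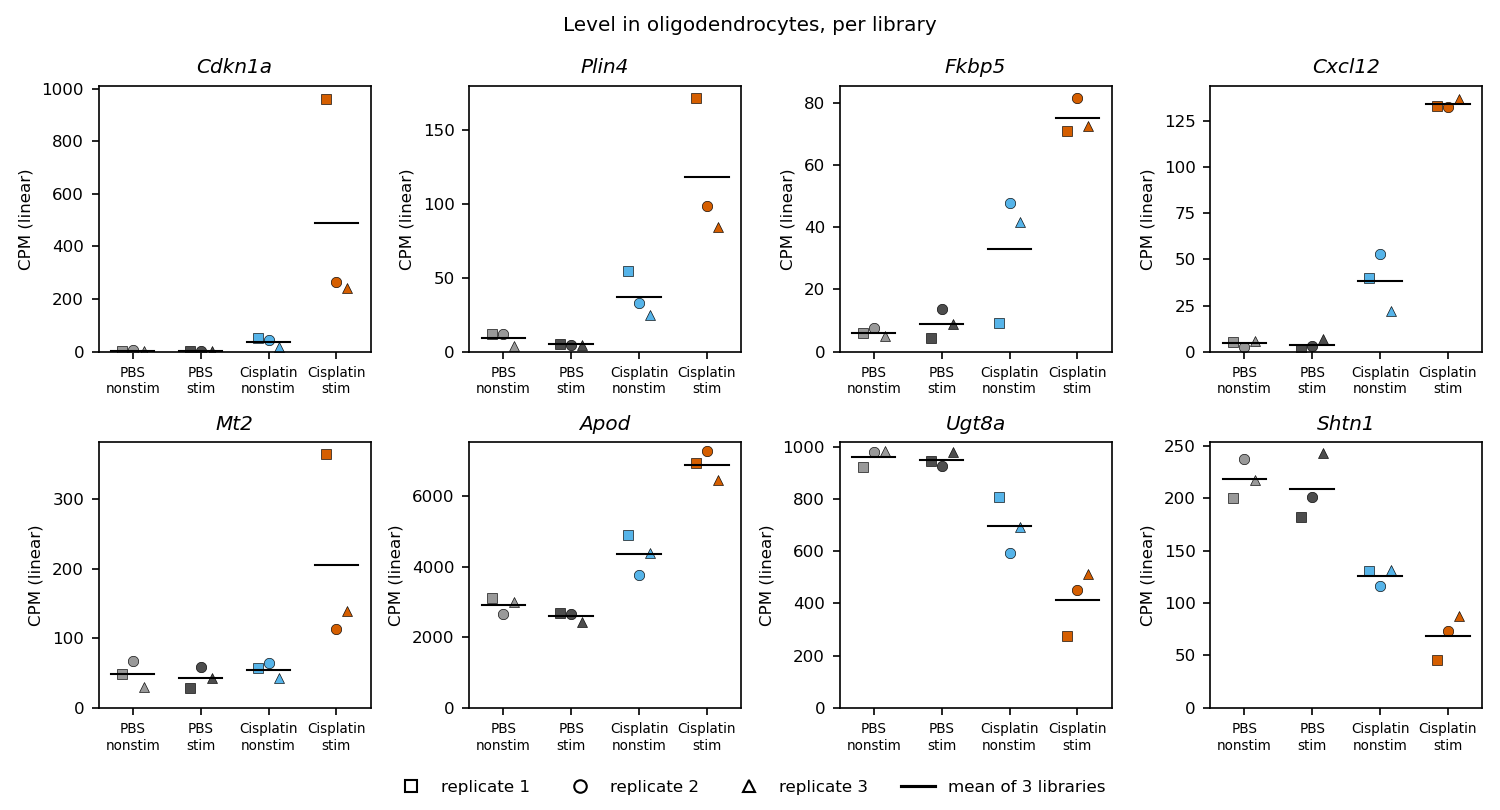
Level of 8 genes in oligodendrocytes of each library, in CPM on linear axes, by group; squares, circles and triangles are replicates 1, 2 and 3 and bars are means of 3 libraries. In the panels of Cdkn1a, Plin4, Cxcl12, Mt2, Apod and Fkbp5 each Cisplatin stim library lies above each Cisplatin nonstim library, and in those of Ugt8a and Shtn1 each lies below.

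The Cdkn1a signal was spread over many cells. Each cell with at least 2000 UMIs was thinned to 2000 UMIs and cells with fewer were left out, so the shares are of the cells kept. A Cdkn1a UMI was seen in 7.47%, 9.33% and 3.44% of oligodendrocytes of the nonstim libraries 1, 2 and 3 (exact 95% binomial intervals 5.13 to 10.4, 6.91 to 12.2 and 1.58 to 6.42). In the stim libraries it was seen in 65.1%, 29.3% and 28.0% (59.1 to 70.7, 23.1 to 36.0 and 22.4 to 34.2). These intervals cover counting error only. The lowest stim library thus stood above the highest nonstim library, and no PBS library exceeded 0.96%. In astrocytes of the cisplatin libraries the share was 0.877%, 0.990% and 4.38% without and 10.1%, 0.990% and 6.11% with stimulation, and in endothelium it was 64.2% or more. The part of free Cdkn1a RNA from other cells in the oligodendrocyte shares was not tested. Group means were 6.75% ± 3.01 (SD, n = 3) and 40.8% ± 21.0 (SD, n = 3) of thinned cells. Without thinning they were 15.1% and 62.4%.

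The authors' clusters split the oligodendrocytes, and the difference was seen in each cluster that both groups filled. Cluster 2 had 10.3, 41.0 and 17.8 Cdkn1a CPM in the nonstim libraries and 774, 217 and 235 in the stim libraries. Cluster 7 had 20.3, 70.2 and 21.3 against 327, 393 and 358, and cluster 8 had 55.2, 33.5 and 9.92 against 932, 204 and 175. Cluster 11, which holds first-batch cells, had 55.6 against 1156. These levels are a description with no test.

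**Figure D2:**
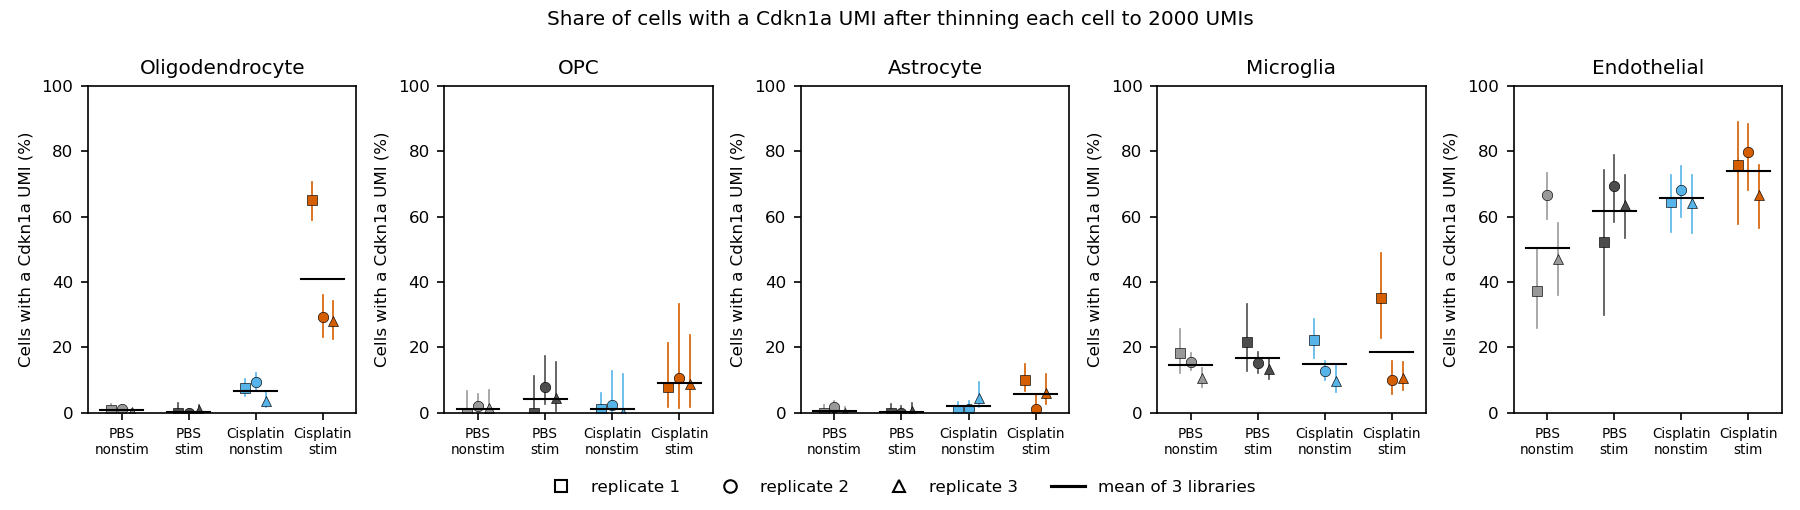
Share of cells with a Cdkn1a UMI, in percent, after thinning to 2000 UMIs, for 5 cell types and each library of the 4 groups. Cells with under 2000 UMIs were left out. Whiskers are exact 95% binomial intervals and bars are means of 3 libraries. In oligodendrocytes the Cisplatin stim libraries reach 28.0% to 65.1% against 3.44% to 9.33% in Cisplatin nonstim, whereas endothelium stands at 64.2% or more in all 6 cisplatin libraries.

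Of the other types, only OPCs gave a called difference in Cdkn1a. OPCs, which divide and give rise to oligodendrocytes, had 4.35, 32.6 and 7.56 CPM without and 66.9, 106 and 68.9 CPM with stimulation, a called rise of 2.43 ± 0.49 (adjusted p = 0.0351), or 3.44 without nonstim 2. In endothelium, which expresses the gene in most cells, the levels were 716, 808 and 861 CPM and 1189, 998 and 712 CPM and the groups overlapped (0.30, adjusted p = 0.887). Astrocytes gave 1.32 (adjusted p = 0.554), microglia -0.09 (adjusted p = 0.976) and pericytes 0.55 (adjusted p = 0.822), none of them called. A call was lost without nonstim 1, nonstim 3, stim 1, stim 2 or PBS stim 3 for Cdkn1a (adjusted p up to 0.417). Whether the oligodendrocyte response differs from that of the other types was not tested.

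Most other genes of the p53 list were not called. Of 21 tested in oligodendrocytes, 2 were called higher, against 0.723% of all genes called higher, and 0 lower. The median difference was 0.10 against 0.01 over all tested genes. The second called gene was Sesn1, a stress-induced inhibitor of mTORC1, at 16.4, 15.3 and 14.03 CPM without and 29.2, 23.04 and 29.01 CPM with stimulation (0.83 ± 0.17 higher, adjusted p = 0.0197). Mdm2, which encodes the ligase that degrades p53, gave -0.02 (adjusted p = 0.983), the pore-forming death protein Bax -0.05 (adjusted p = 0.946), Ccng1 0.42 (adjusted p = 0.37) and the death inducer Bbc3 0.61 (adjusted p = 0.232). None of the 19 DNA repair and 12 cell cycle genes tested in oligodendrocytes was called. With the replicate number as a block, the adjusted p was 0.113 for Sesn1. The call was not kept without nonstim 1, nonstim 2, nonstim 3, stim 1 or stim 3 for Sesn1 (adjusted p up to 0.117).

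In oligodendrocytes, 13 of the 22 glucocorticoid response genes tested (25 listed) were called higher and 0 lower, against 0.723% of all genes called higher; 18 of 22 differences were positive, and the median was 1.05. In 14 of the 22 every stim library lay above every nonstim library, which 6.36% of all tested genes did. The lists were chosen with earlier results of these data known, so these counts are a description and not an independent test. Cdkn1a, which is also on the p53 list, and Plin4 are members of the glucocorticoid list. Arrdc2, Hif3a, Zbtb16, Klf9, Nfkbia, Ddit4, Fkbp5 and Pdk4 were the further members called beside Sult1a1 and the metallothioneins, and several of these lie outside the rule for named genes so they were picked once their values were known.

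Fkbp5, a chaperone that damps the glucocorticoid receptor, had 9.21, 47.8 and 41.7 CPM in the nonstim and 71.00, 81.5 and 72.5 CPM in the stim libraries. The groups did not overlap, though in the second batch the gap was narrow beside that of the first (1.25 ± 0.25, adjusted p = 0.0164). Arrdc2, an arrestin-domain adaptor, had 45.6, 97.8 and 84.2 CPM against 176, 160.1 and 167 CPM (1.14 ± 0.20, adjusted p = 0.00553), with the 3 stim libraries close together above all nonstim ones. Sult1a1, a phenol sulfotransferase, went from 13.6, 7.02 and 1.28 CPM to 47.3, 16.5 and 18.1 CPM (1.84 ± 0.31, adjusted p = 0.00434). Hif3a, a member of the hypoxia-inducible factor family that glucocorticoids induce, went from 4.404, 10.1 and 11.5 to 31.2, 23.04 and 19.9 CPM (1.49995 ± 0.31, adjusted p = 0.0164). For both genes the lowest stim library exceeded the highest nonstim library.

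The transcription factor Zbtb16 had 24.02, 42.6 and 34.4 CPM without and 162, 66.2 and 54.4 CPM with stimulation (1.33 ± 0.26, adjusted p = 0.0123), highest in the first-batch stim library. Klf9, another hormone-induced transcription factor, had 212, 394 and 356 CPM against 455, 594 and 469.6 CPM (0.69 ± 0.14, adjusted p = 0.0164). Nfkbia, the inhibitor of NF-kB, had 84.9, 146 and 139 CPM against 139, 253 and 227 CPM (0.74 ± 0.15, adjusted p = 0.0141), and its groups overlapped because the first-batch stim library lay at the level of the second-batch nonstim libraries. Ddit4, an inhibitor of mTORC1, rose by 0.68 ± 0.15 (adjusted p = 0.0323) and Pdk4, which restrains glucose oxidation, by 1.22 ± 0.26 (adjusted p = 0.0247).

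In the fit with the replicate block, the adjusted p was 0.106 for Fkbp5, 0.0812 for Hif3a, 0.123 for Zbtb16, 0.0975 for Ddit4 and 0.0784 for Pdk4. The call was absent without nonstim 1, nonstim 3 or stim 1 for Fkbp5 (adjusted p up to 0.12), without nonstim 1 or stim 1 for Sult1a1 and Zbtb16 (adjusted p up to 0.137), without nonstim 1, stim 1 or stim 2 for Hif3a (adjusted p up to 0.252). The threshold was not met without nonstim 1, nonstim 3, stim 1 or stim 2 for Klf9 and Pdk4 (adjusted p up to 0.153), without nonstim 1, nonstim 3 or stim 2 for Nfkbia (adjusted p up to 0.0879), without nonstim 1, nonstim 2, stim 1, stim 2 or PBS stim 3 for Ddit4 (adjusted p up to 0.213). Arrdc2 was kept in each of these fits.

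Other members of the list did not pass. Sgk1, a kinase induced by the hormone, gave 0.98 (adjusted p = 0.15), Per1 0.37 (adjusted p = 0.439), Tsc22d3, which encodes the leucine zipper GILZ, -0.01 (adjusted p = 0.991) and Dusp1 -0.50 (adjusted p = 0.503). Nr3c1, the gene of the receptor itself, gave -0.06 (adjusted p = 0.881). Map3k6, Lcn2 and Angptl4 were too low to be tested.

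Both ubiquitous metallothioneins, small proteins that bind zinc and other metals, rose. Mt2 had 57.7, 64.7 and 42.9 CPM in the nonstim and 366, 113 and 139.6 CPM in the stim libraries (1.79 ± 0.31, adjusted p = 0.00534). Mt1 had 806, 1333 and 1001 CPM and 3736, 1919 and 2135 CPM (1.34 ± 0.24, adjusted p = 0.00737). In both, the groups did not overlap and the first-batch stim library was the highest; without it Mt2 gave 1.15 and stayed called. Mt3, the brain form, gave 0.23 (adjusted p = 0.661), and 2 of the 5 genes of the metallothionein and zinc list were called, against 0.723% of all genes called higher. There was no call without nonstim 1 for Mt2 (adjusted p up to 0.0641), without nonstim 1 or nonstim 3 for Mt1 (adjusted p up to 0.0791).

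The promoter windows of Mt1, Mt2 and Fam107a are shown because metallothionein genes answer both to metals and to glucocorticoids, and because Mt1 and Fam107a were the only 2 of 55 matched higher genes (of 73) whose windows hold the glucocorticoid letters. Capitals mark those letters in Mt1 (chr8:94178839-94179088, plus strand, 94 bases before the start) and Fam107a (chr14:8309780-8310029, minus strand, 118 bases before 1 of its starts). Of 19 matched lower genes (of 27), Eml1 holds the same letters in 1 of its windows, so that they are in 3.85% of windows of the lower genes and 4.0% of those of the higher genes. In Mt2 (chr8:94172368-94172617, plus strand) capitals mark the 5 matches of TGCNCNC on either strand. These letters are looser than TGCRCNC, the core of a metal response element, in which R is A or G. Of the marked stretches, GGGAGCA and TGCTCTC match the looser letters only. All are RefSeq windows on GRCm38.p6, printed 5′ to 3′ on the strand of the gene.

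Mt1: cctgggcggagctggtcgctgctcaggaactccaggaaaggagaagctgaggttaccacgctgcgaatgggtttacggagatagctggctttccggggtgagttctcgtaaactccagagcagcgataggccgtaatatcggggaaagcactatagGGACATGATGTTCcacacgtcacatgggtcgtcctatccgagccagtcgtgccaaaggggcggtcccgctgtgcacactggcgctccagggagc

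Fam107a: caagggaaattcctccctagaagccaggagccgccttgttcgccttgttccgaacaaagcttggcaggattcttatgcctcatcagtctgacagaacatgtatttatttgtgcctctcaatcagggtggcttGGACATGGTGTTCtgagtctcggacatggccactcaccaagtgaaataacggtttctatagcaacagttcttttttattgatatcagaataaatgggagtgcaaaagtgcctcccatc

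Mt2: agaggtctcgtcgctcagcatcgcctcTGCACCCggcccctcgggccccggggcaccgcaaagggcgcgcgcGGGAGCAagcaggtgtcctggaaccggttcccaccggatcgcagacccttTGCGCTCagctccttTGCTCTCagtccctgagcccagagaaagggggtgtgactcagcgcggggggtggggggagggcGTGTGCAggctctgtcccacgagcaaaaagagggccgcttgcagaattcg

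Of the 12 matched among the 13 called glucocorticoid genes, 1 (Mt1) holds the glucocorticoid letters in its window. The looser metal letters, TGCNCNC, are common. They occur in 44.4% of all windows, in 62.7% of windows of the higher genes and in 53.8% of windows of the lower genes. A match says that the letters are there and nothing of binding, and a window without them says nothing of the receptor.

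**Figure D3:**
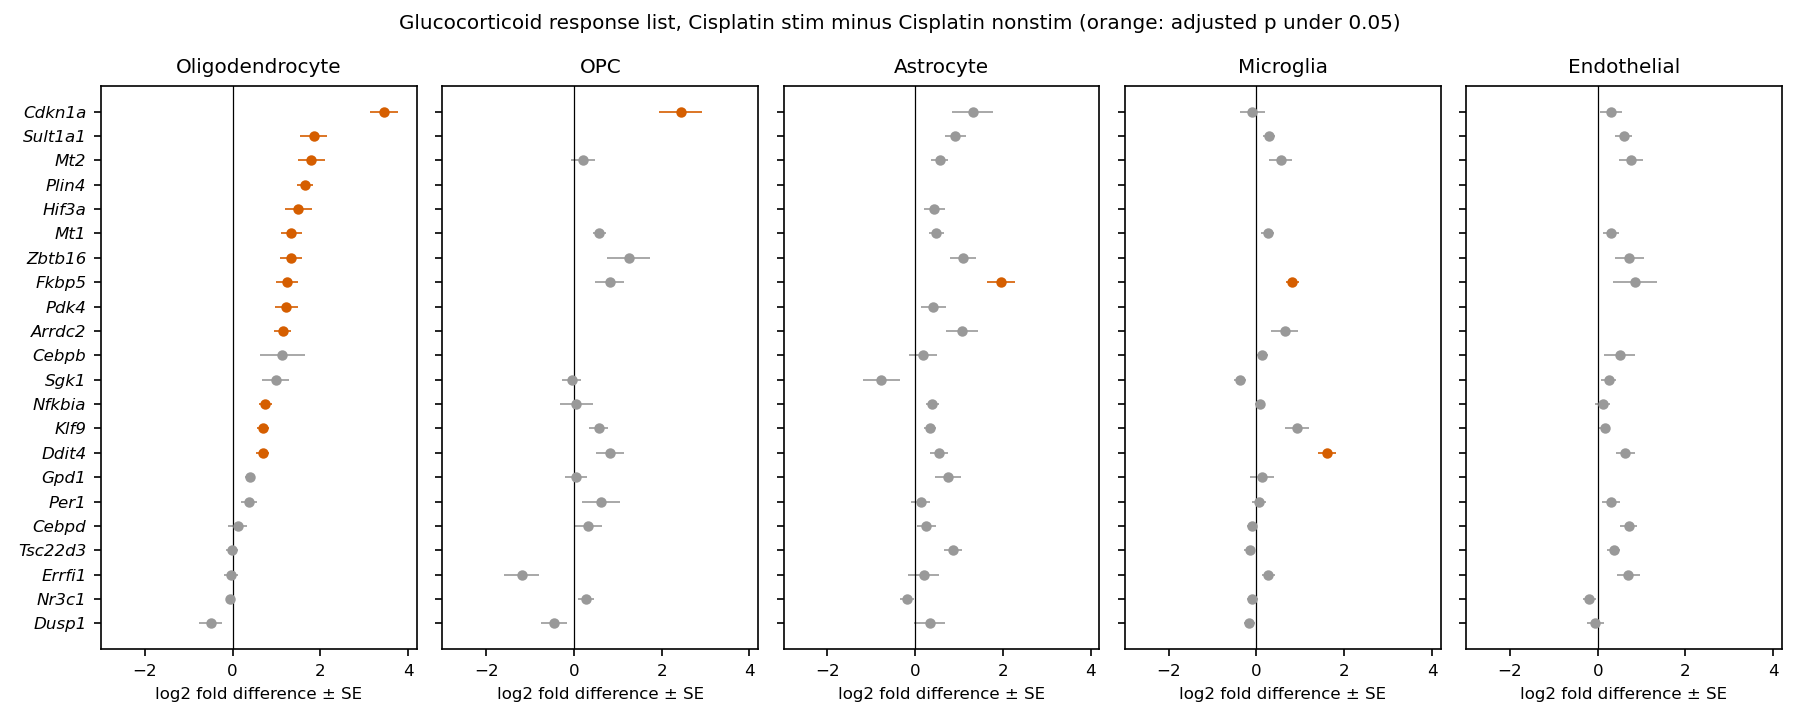
Log2 fold difference, stim minus nonstim in cisplatin-treated mice, with its standard error, for the 22 glucocorticoid response genes tested in oligodendrocytes and for the same genes where tested in 4 other cell types; orange points are called. In oligodendrocytes 13 of the 22 are called, and 1 each in OPCs and astrocytes, 2 in microglia and 0 in endothelium.

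Outside oligodendrocytes few genes of the list were called. In astrocytes 1 of 22 was called (0.0295% of all genes were), 20 of 22 were positive and the median was 0.43, with 12 at an unadjusted p under 0.05 and higher against 3.43% of all genes. In endothelium 0 of 20 were called, 18 were positive and the median was 0.55, with 10 at an unadjusted p under 0.05 and higher against 4.32%. Microglia had 2 of 18 called and 12 positive (median 0.13), OPCs 1 of 15 called and 12 positive (0.33), and pericytes 0 of 18 called and 17 positive (0.34). Over all tested genes 0.131% were called in microglia and 0.0521% in OPCs. Neurons had 0 of 15 called and 8 positive (0.18), choroid plexus cells 0 of 13 and 9 positive (0.06), and other immune cells 0 of 15 and 13 positive (0.41). In astrocytes Fkbp5 had 5.14, 14.8 and 12.1 CPM without and 39.5, 45.3 and 37.2 CPM with stimulation, with no overlap (1.95 ± 0.32, adjusted p = 0.00744). In microglia it had 47.02, 173 and 173 CPM against 133, 291 and 249 CPM (0.81 ± 0.15, adjusted p = 0.0189), where the groups overlapped between batches and each stim library lay above the nonstim libraries of its batch. In astrocytes, significance was lost without nonstim 1, nonstim 3 or stim 1 for Fkbp5 (adjusted p up to 0.175). In microglia, a call was lost without nonstim 1, nonstim 2 or stim 2 for Fkbp5 (adjusted p up to 0.194).

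Plin4 and Pnpla2, genes of lipid storage, rose in oligodendrocytes. Plin4, whose product coats lipid droplets, had 54.5, 32.8 and 24.7 CPM in the nonstim and 172, 98.7 and 84.3 CPM in the stim libraries (1.65 ± 0.18, adjusted p = 8.01e-05). Pnpla2, which encodes the lipase that opens stored triglycerides, had 72.9, 58.8 and 64.2 CPM against 287, 130.0 and 104 CPM (1.34 ± 0.19, adjusted p = 0.000752). Neither gene's groups overlapped, and the first-batch stim library was the highest for both. These were the 2 called genes of 9 tested on the lipid droplet list, against 0.723% of all genes called higher. The list median was 0.07, so the rise was not shared by the list as a whole. Dgat2, which makes triglycerides, gave 0.67 (adjusted p = 0.0824).

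Apod, an apolipoprotein of the lipocalin family that mature oligodendrocytes make in large amounts, had 4899, 3765 and 4389 CPM without and 6927, 7282 and 6447 CPM with stimulation. The stim libraries lay close together and above each nonstim library (0.67 ± 0.10, adjusted p = 0.00241). Apoe gave 0.39 (adjusted p = 0.115), and 1 of the 7 tested genes of lipoproteins and cholesterol export was called, against 0.723% of all genes called higher. Adipor2, a receptor of adiponectin, and Por, the reductase that feeds cytochrome P450 enzymes, rose by 0.68 ± 0.12 and 0.71 ± 0.13 (adjusted p = 0.00741 and 0.00886), and both were chosen after their values were seen. The call was not kept without nonstim 1 or stim 1 for Adipor2 (adjusted p up to 0.0653), without nonstim 1, nonstim 3 or stim 1 for Por (adjusted p up to 0.116).

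Genes of secreted signals, adhesion and transport followed. Cxcl12, a chemokine that guides cells bearing Cxcr4, had 40.04, 53.04 and 22.1 CPM in the nonstim and 133, 133 and 137 CPM in the stim libraries (1.77 ± 0.21, adjusted p = 0.000196). The stim libraries lie close together and all exceed the nonstim libraries. Endothelium, a main source of the chemokine in brain, had 3612, 4214 and 3991 CPM and 1734, 3166 and 3526 CPM (-0.53, adjusted p = 0.163), and pericytes gave -0.60 (adjusted p = 0.414), neither called. The 5 tested endothelial markers summed to between 10.4 and 27.2 CPM in nonstim oligodendrocytes and to between 7.05 and 58.5 CPM in stim oligodendrocytes, against 18001 to 21257 CPM in endothelium of the same libraries.

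Tspan4, a tetraspanin of the cell membrane, was near the detection floor without stimulation at 2.00, 3.90 and 3.4003 CPM and had 154, 14.8 and 18.6 CPM with it (3.86 ± 0.43, adjusted p = 8.01e-05); the first-batch stim library stood far above the other two. Tspan4 stayed called at 2.21 without nonstim 1, 2.35 without stim 1 and 4.79 without nonstim 2. Itgad, which encodes integrin alpha D and shares 11.3% of its 31-base words with the related integrin gene Itgax, had 58.5, 99.1 and 60.8 CPM against 173, 175 and 165 CPM (1.22 ± 0.16, adjusted p = 0.000458). Its stim libraries lay close together above all nonstim libraries.

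Further genes kept their calls in each fit with 1 library left out. Phactr3, a regulator of actin and of protein phosphatase 1, had 124, 199 and 128 CPM without and 582, 331 and 329.5 CPM with stimulation (1.43 ± 0.20, adjusted p = 0.000682). Sgk3, a kinase of the family of Sgk1, had 60.9, 50.7 and 45.1 CPM against 310.2, 97.5 and 108 CPM (1.61 ± 0.23, adjusted p = 0.000752). Fam107a, an actin-associated protein that stress hormones induce in brain, had 52.1, 20.02 and 25.1 CPM against 115, 72.7 and 65.7 CPM (1.44 ± 0.20, adjusted p = 0.000752). In each of these 3 the groups did not overlap.

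Phyhd1, a dioxygenase, had 30.03, 14.3 and 8.08 CPM without and 58.9, 64.4 and 49.4 CPM with stimulation (1.76 ± 0.25, adjusted p = 0.000752); 41.5% of its words are shared with the readthrough gene Gm28035, so its counts are uncertain. Pdxk, the kinase that activates vitamin B6, had 30.03, 89.4 and 68.4 CPM against 100.2, 153 and 149.6 CPM (1.11 ± 0.17, adjusted p = 0.00241). Each stim library exceeded every nonstim library for both. Sh2b2, an adaptor of receptor kinases, rose by 1.69 ± 0.27 (adjusted p = 0.00259) and Tma16, a factor of ribosome assembly, by 1.32 ± 0.19 (adjusted p = 0.000752). Fam107a, Tma16, Pdxk and Sh2b2 lie outside the rule for named genes and were chosen because their calls were kept.

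The 27 genes that fell in oligodendrocytes included an enzyme of myelin lipid synthesis and a chaperone. Ugt8a encodes the transferase that makes galactosylceramide, the main glycolipid of myelin, and had 809, 594 and 691 CPM in the nonstim and 275, 453 and 511 CPM in the stim libraries. All stim libraries were below all nonstim libraries, and Ugt8a fell by 0.77 ± 0.16 (adjusted p = 0.0161). Cryab, a small heat shock chaperone abundant in oligodendrocytes, had 3152, 2256 and 2509 CPM against 2262, 1668 and 1703 CPM and fell by 0.49 ± 0.10 (adjusted p = 0.0194). For Cryab the first-batch stim library reached the lowest nonstim library.

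On the list of 28 myelin and mature oligodendrocyte genes, all tested, 3 were called lower (0.267% of all genes were), Ugt8a and Cryab among them, and Apod was called higher (0.723% of all genes were). The median was -0.19 against 0.01 over all genes, 12 were lower at an unadjusted p under 0.05 (5.69% of all genes were) and 11 had stim libraries all below the nonstim ones (5.86% of all genes). Of the major myelin proteins, neither of these was called: Mbp gave 0.07 (adjusted p = 0.873) and Mobp 0.28 (adjusted p = 0.318). The sum of the 6 oligodendrocyte markers was 46065 to 47260 CPM in nonstim and 42690 to 44875 CPM in stim libraries. None of the 6 markers was called, and the 2 ranges do not overlap.

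Shtn1 (shootin-1, known from axon outgrowth) was the lower gene whose call was kept in each fit with 1 library left out. It had 131, 116 and 131 CPM without and 45.3, 73.3 and 87.9 CPM with stimulation and fell by 0.88 ± 0.15 (adjusted p = 0.00434), with no overlap. Chordc1, a cochaperone of Hsp90, had 66.9, 54.6 and 59.5 CPM against 36.3, 31.3 and 35.4 CPM and fell by 0.80 ± 0.14 (adjusted p = 0.00682). Adamtsl1, a secreted matrix protein, had 80.1, 74.9 and 74.4 CPM against 34.2, 49.6 and 48.04 CPM and fell by 0.80 ± 0.15 (adjusted p = 0.0101). Stim libraries lay below nonstim libraries throughout for both.

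Sox2ot, a long noncoding RNA that overlaps Sox2, fell by 0.66 ± 0.12 (adjusted p = 0.00971), the phosphoinositide phosphatase Inpp5f by 0.49 ± 0.09 (adjusted p = 0.0123), Depdc7 by 1.25 ± 0.25 (adjusted p = 0.014) and the microtubule-associated Eml1 by 0.93 ± 0.19 (adjusted p = 0.017). Gstp1, a glutathione transferase, had 924, 706 and 741 CPM without and 757, 319.6 and 212 CPM with stimulation and fell by 1.04 ± 0.20 (adjusted p = 0.0123). In Gstp1 the first-batch libraries lay close to each other and the second-batch stim libraries were far below. Gstp1 shares 38.5% of its words with Gstp2, so reads could be split between them.

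The adjusted p with the replicate block was 0.127 for Ugt8a, 0.0746 for Cryab, 0.0726 for Sox2ot, 0.0806 for Inpp5f, 0.0748 for Depdc7, 0.0746 for Eml1, 0.0713 for Gstp1, 0.199 for Idi1, 0.0748 for Itih5, 0.12 for Itih3 and 0.123 for Cirbp. The call was absent without nonstim 1, nonstim 3 or stim 1 for Ugt8a, Inpp5f, Depdc7 and Eml1 (adjusted p up to 0.133), without nonstim 1, nonstim 3, stim 2 or stim 3 for Cryab (adjusted p up to 0.122), without nonstim 1 for Chordc1 and Sox2ot (adjusted p up to 0.0653). The threshold was not met without nonstim 1 or stim 1 for Adamtsl1 (adjusted p up to 0.0949), without nonstim 3, stim 2 or stim 3 for Gstp1 and Itih5 (adjusted p up to 0.0764), without nonstim 1, nonstim 3, stim 1, stim 3, PBS nonstim 3, PBS stim 2 or PBS stim 3 for Idi1 (adjusted p up to 0.264). There was no call without nonstim 1, nonstim 2, stim 1 or stim 3 for Itih3 (adjusted p up to 0.184), without nonstim 1, nonstim 3, stim 1, stim 2, stim 3, PBS nonstim 3, PBS stim 2 or PBS stim 3 for Cirbp (adjusted p up to 0.224).

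Cholesterol synthesis genes leaned lower, with 1 call (0.267% of all genes were called lower). Idi1, the isomerase of the isoprenoid pathway, had 90.9, 67.6 and 82.5 CPM without and 36.8, 63.2 and 51.2 CPM with stimulation and fell by 0.68 ± 0.16 (adjusted p = 0.0373). Of the 24 genes tested, 7 were lower and 1 higher at an unadjusted p under 0.05 (5.69% and 5.76% of all genes), and the median was -0.26. Hmgcs1, which makes the precursor of mevalonate, gave -0.64 (adjusted p = 0.0822), Msmo1 -0.62 (adjusted p = 0.0836) and Cyp51 -0.70 (adjusted p = 0.0967), none called.

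Immediate early genes, which cells switch on within minutes of a stimulus, gave a median of -0.56 over 22 tested. Of these 0 were positive, 9 were lower at an unadjusted p under 0.05 (5.69% of all genes were) and 0 were called. Fos had 2754, 2191 and 1576 CPM without and 539, 1785 and 1255 CPM with stimulation (-0.84, adjusted p = 0.29), and the groups overlapped. The first-batch stim library was the lowest, and the second-batch values lay close together. In 4 of the 22 (Nr4a1, Arc, Klf4 and Jun) the stim libraries were all below the nonstim libraries, against 5.86% of all genes. None of 14 genes of endoplasmic reticulum stress was called (median -0.29), and the strongest was the disulfide isomerase Pdia6 at -0.63 (adjusted p = 0.0705).

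Of the matrix genes, Itih5 rose by 0.96 ± 0.19 (adjusted p = 0.0142) and Itih3 fell by 0.79 ± 0.17 (adjusted p = 0.0258); both encode heavy chains that stabilise hyaluronan. Cirbp, an RNA-binding protein induced by cold, rose by 0.76 ± 0.18 (adjusted p = 0.0381), while its relative Rbm3 gave 0.77 (adjusted p = 0.218). None of 15 circadian clock genes and none of 13 mitochondrially encoded genes was called in oligodendrocytes.

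**Figure D4:**
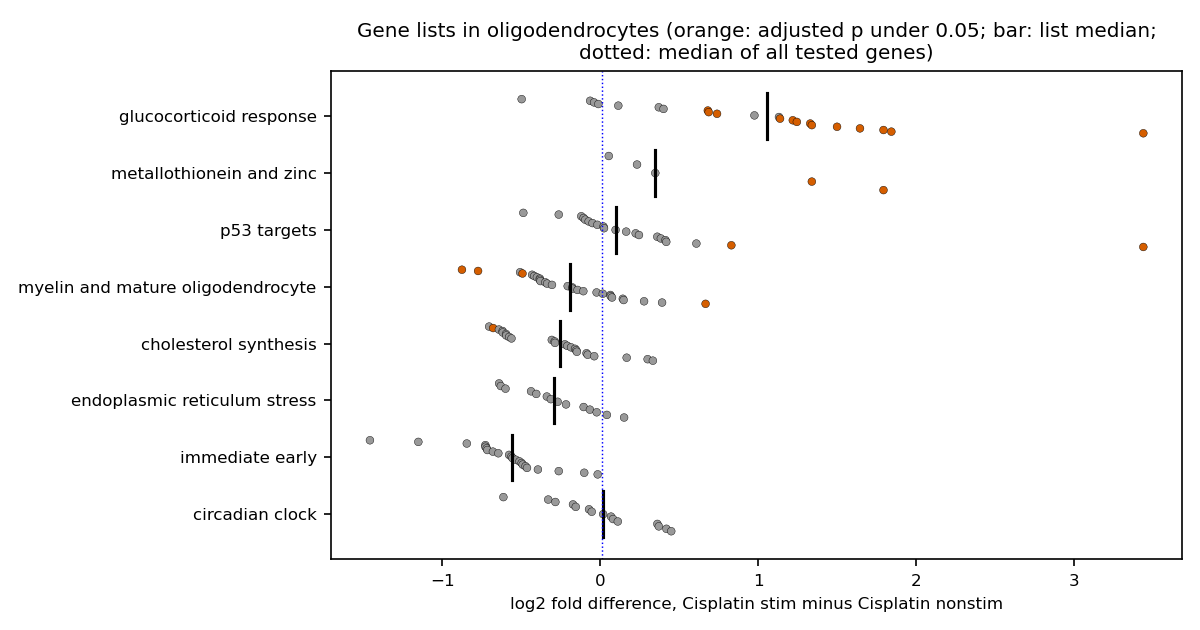
Log2 fold difference in oligodendrocytes, stim minus nonstim in cisplatin-treated mice, for each tested gene of 8 lists; orange points are called, black bars are list medians and the dotted line is the median of all tested genes (0.01). The glucocorticoid list lies to the right (median 1.05), and the immediate early list to the left of 0 (median -0.56) with no called gene.

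In microglia 10 genes were called higher (0.101%) and 3 lower (0.0303%), and with the replicate block 22 were called. Ddit4, the mTORC1 inhibitor, had 12.8, 54.2 and 108 CPM in the nonstim and 85.5, 198 and 216 CPM in the stim libraries, each stim library above the nonstim libraries of its batch (1.60 ± 0.21, adjusted p = 0.000521). Cxcl2, a chemokine that draws neutrophils, had 178, 36.4 and 34.9 CPM against 379.9, 53.9 and 81.8 CPM (1.00 ± 0.18, adjusted p = 0.0182), with first-batch values above those of the second batch in both groups. Jdp2, a repressor of AP-1, had 28.6, 26.4 and 22.6 CPM against 72.2, 46.95 and 45.2 CPM without overlap (0.99 ± 0.19, adjusted p = 0.0258).

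Klf2, a transcription factor that restrains inflammation, had 711, 905 and 1077 CPM without and 378, 391 and 766 CPM with stimulation and fell by 0.82 ± 0.16 (adjusted p = 0.0341); its groups overlapped. Gstp1 had 47.02, 24.6 and 24.2 CPM against 15.2, 7.697 and 5.38 CPM and fell by 1.82 ± 0.32 (adjusted p = 0.0182), with no overlap, and the histone gene Hist1h2ap, which shares 93.4% of its words with Hist1h2ao, fell by 1.91 ± 0.38 (adjusted p = 0.0423), with a difference of -1.25 without nonstim 2. Aldh1a3, a retinal dehydrogenase, had 2.04, 0 and 0 CPM and 0, 33.9 and 26.4 CPM, so that its call rests on the second-batch stim libraries alone (adjusted p = 0.0281). Significance was lost without nonstim 2 for Ddit4 (adjusted p up to 0.0522), without nonstim 1, nonstim 2, stim 1 or stim 3 for Cxcl2 (adjusted p up to 0.186), without nonstim 1, nonstim 2, nonstim 3, stim 1, stim 2 or stim 3 for Jdp2 (adjusted p up to 0.132). A call was lost without nonstim 1, nonstim 2, nonstim 3, stim 1, stim 2 or PBS stim 2 for Klf2 (adjusted p up to 0.243), without nonstim 2, stim 1, stim 2 or stim 3 for Gstp1 (adjusted p up to 0.12), without nonstim 1, nonstim 2, stim 1, stim 2, stim 3 or PBS stim 1 for Hist1h2ap (adjusted p up to 0.366). The call was not kept without nonstim 1, nonstim 2, nonstim 3, stim 2 or stim 3 for Aldh1a3 (adjusted p up to 0.25).

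No microglial state list moved as a body of calls. Of 20 homeostatic genes 0 were called (median -0.17; 5 lower at an unadjusted p under 0.05, a direction that 3.27% of all genes took), and of 19 genes of disease-associated microglia and 24 interferon genes 0 were called. Of 17 cytokine and NF-kB genes, Cxcl2 was the 1 called, the median was 0.27 and 6 were higher at an unadjusted p under 0.05, against 3.94% of all genes. Of 22 immediate early genes, Klf2 was the 1 called, the median was -0.14 and 9 were lower at an unadjusted p under 0.05. Fos gave -0.49 (adjusted p = 0.115).

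In endothelium 12 genes were called higher (0.147%) and 1 lower (0.0123%), none kept in every fit with 1 library left out. Ccn2, a matricellular protein that mechanical stress and TGF-beta induce, had 49.0, 213 and 150.02 CPM in the nonstim and 404, 593 and 324 CPM in the stim libraries, with no overlap (1.73 ± 0.31, adjusted p = 0.0282). Trp53inp1, a p53 target, had 40.7, 94.6 and 96.01 CPM against 127, 135 and 181 CPM (0.95 ± 0.17, adjusted p = 0.0282) and was the 1 called of 22 p53 genes. Fmo2, a monooxygenase, had 89.7, 164 and 117 CPM against 768, 226 and 252 CPM (1.54 ± 0.30, adjusted p = 0.0458), highest in the first-batch stim library, without which the difference was 0.95.

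Galnt15, Ranbp9, Net1, Plxna2 and Gimap6 rose by 1.12 ± 0.22, 0.94 ± 0.19, 1.01 ± 0.21, 0.78 ± 0.16 and 0.73 ± 0.15, with adjusted p from 0.0458 to 0.0492, at or near the threshold. Gstp1 was the 1 lower gene, at 89.7, 63.4 and 62.01 CPM without and 30.1, 20.5 and 16.1 CPM with stimulation (1.69 ± 0.31 lower, adjusted p = 0.0282), with no overlap. Of 21 blood-brain barrier genes and 28 interferon genes 0 were called. The call was absent without nonstim 1, nonstim 3, stim 1 or stim 2 for Ccn2 (adjusted p up to 0.158), without nonstim 1, nonstim 2, nonstim 3, stim 1, stim 3 or PBS stim 3 for Trp53inp1 (adjusted p up to 0.171), without nonstim 1, nonstim 3, stim 1, stim 3 or PBS stim 3 for Fmo2 (adjusted p up to 0.353). The threshold was not met without nonstim 2, nonstim 3, stim 1 or stim 3 for Gstp1 (adjusted p up to 0.138). There was no call without nonstim 1, nonstim 3, stim 1, stim 2, stim 3, PBS nonstim 3, PBS stim 2 or PBS stim 3 for Galnt15 (adjusted p up to 0.232), without nonstim 1, nonstim 2, nonstim 3, stim 1, stim 2, stim 3, PBS nonstim 3 or PBS stim 3 for Ranbp9 (adjusted p up to 0.342), without nonstim 1, nonstim 2, nonstim 3, stim 1, stim 3, PBS nonstim 3 or PBS stim 3 for Net1 (adjusted p up to 0.437). Significance was lost without nonstim 1, nonstim 2, nonstim 3, stim 1, stim 2, stim 3, PBS nonstim 3, PBS stim 2 or PBS stim 3 for Plxna2 and Gimap6 (adjusted p up to 0.385).

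In astrocytes Rhou, a small GTPase, had 44.1, 77.9 and 78.04 CPM without and 131, 160.4 and 126 CPM with stimulation, with no overlap (1.10 ± 0.16, adjusted p = 0.00254). Far1, which makes fatty alcohols for ether lipids, had 47.8, 50.4 and 35.3 CPM against 225, 69.9 and 70.7 CPM (1.38 ± 0.25, adjusted p = 0.0217), and without the first-batch stim library the difference was 0.69. With Fkbp5 these were the 3 called genes. A call was lost without nonstim 1 for Rhou (adjusted p up to 0.085), without nonstim 1, nonstim 3 or stim 1 for Far1 (adjusted p up to 0.575).

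In OPCs Chst2, a sulfotransferase of keratan sulfate, had 424, 379 and 446 CPM without and 1185, 625 and 639.5 CPM with stimulation (0.95 ± 0.16, adjusted p = 0.00544). Bc1, a small noncoding RNA polymerase III transcript that shares 37.7% of its words with Lrrc17, so that its counts are uncertain, had 489, 213 and 269 CPM against 784, 648 and 615 CPM (1.09 ± 0.21, adjusted p = 0.0222). Ptgds, prostaglandin D synthase, had 216, 166 and 216 CPM against 100.4, 82.5 and 68.9 CPM and fell by 1.25 ± 0.22 (adjusted p = 0.00544). In all 3 the groups did not overlap, which held for 4.18% (higher) and 4.37% (lower) of the genes tested in OPCs. The call was not kept without nonstim 1 or stim 1 for Chst2 (adjusted p up to 0.276), without nonstim 2, nonstim 3, stim 1, stim 2 or stim 3 for Bc1 (adjusted p up to 0.31), without stim 1 or stim 3 for Ptgds (adjusted p up to 0.098).

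Pericytes gave 3 lower genes, which are abundant in other cells of these libraries. The cells named pericytes also held the 6 endothelial markers, at 11960 to 14907 CPM (nonstim) and 10985.5 to 13182 CPM (stim). Their 6 pericyte markers summed to 12447 to 13818 CPM (nonstim) and 14817 to 15554 CPM (stim). The part of endothelial cells or their RNA in the pericyte values, here and above, was not tested. Ttr, the thyroid hormone carrier that choroid plexus secretes, had 209.7, 3309 and 2892 CPM in the nonstim and 102, 349.6 and 331 CPM in the stim libraries and fell by 2.93 ± 0.34 (adjusted p = 7.8e-05). The groups overlapped only through the first-batch nonstim library, which lay among the stim values. Ptgds had 305, 269.7 and 1634 CPM against 64.9, 47.99 and 71.5 CPM (lower by 3.68 ± 0.66, adjusted p = 0.0248) and Apod had 1884, 617 and 399 CPM against 455, 175 and 149 CPM (lower by 1.85 ± 0.31, adjusted p = 0.0115). For Ptgds the groups did not overlap, and for Apod the lowest nonstim library lay below the highest stim library. The call was absent without nonstim 1, stim 2 or stim 3 for Apod (adjusted p up to 0.239), without nonstim 1, nonstim 3, stim 2 or stim 3 for Ptgds (adjusted p up to 0.487). For Ptgds the log2 difference was -2.33 without nonstim 3 and -4.34 without nonstim 2.

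Ttr was not called for stimulation in astrocytes or OPCs. Astrocytes had 456, 1546 and 910.4 CPM against 112, 397 and 305 CPM (-1.93, adjusted p = 0.235), and OPCs 512, 6269 and 227 CPM against 143, 448 and 397 CPM (-2.80, adjusted p = 0.0763). Of the 6 choroid plexus markers, Ttr was the 1 that passed the filter on low counts in pericytes, astrocytes and OPCs, while the 6 summed to between 116222 and 280766 CPM in choroid plexus cells. Choroid plexus cells made up 10.8%, 38.0% and 11.4% of the nonstim libraries and 7.96%, 29.7% and 19.2% of the stim libraries. The part of RNA from choroid plexus cells in these values was not tested.

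Neurons, choroid plexus cells and other immune cells gave 0 calls at this number of libraries. Neurons had 472 of 6561 genes at an unadjusted p under 0.05 and 0 calls by DESeq2. Choroid plexus cells had 143 of 7952, 1 call by DESeq2 and 9 with the replicate block, and other immune cells 123 of 2395 and 11 calls by DESeq2. Of 23 glutamate and GABA receptor genes tested in neurons, 2 were positive, 6 were lower at an unadjusted p under 0.05 (3.75% of all genes) and the median was -0.54. Grm7 gave -1.55 (adjusted p = 0.677). Beside these values, the authors' cluster 10 held 50.5%, 46.8% and 61.7% of the neurons in the nonstim and 78.1%, 80.4% and 51.3% in the stim libraries. The 6 neuron markers summed to 4901 to 18409 CPM in nonstim and 4592 to 6942 CPM in stim neurons, and the 7 astrocyte markers to 2409 to 6786 and 2710 to 11104 CPM. The neurons had 28.2%, 26.8% and 30.1% mitochondrial UMIs in the nonstim and 40.9%, 29.8% and 19.2% in the stim libraries, and the part of cluster makeup, other cells' RNA and mitochondrial share in the neuronal values was not tested.

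Several of the genes called higher share sequence with an expressed gene, and they are given as a description, picked once their values were known. Hist1h2ap and Gstp1, which also share sequence with another gene, were called lower. Gm2000, which shares 90.4% of its 31-base words with the ribosomal protein gene Rpl35, had 14.3, 27.5 and 36.02 CPM in nonstim and 24.7, 132 and 130.2 CPM in stim microglia (1.96 ± 0.21, adjusted p = 5.36e-05). Rpl35 itself had 1417, 1408 and 1326 CPM against 1463, 1169 and 804 CPM (-0.30, adjusted p = 0.685). Rpl35 was thus not called, and how the authors' counting split reads between them was not tested.

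Further genes of this kind were called. Rpl10-ps3 (96.2% shared with Rpl10) passed in microglia (1.99 ± 0.33, adjusted p = 0.0148), Rps27rt (91.6% with Rps27) in oligodendrocytes (1.24 ± 0.27, adjusted p = 0.0316), and Eno1b (81.8% with Eno1) in microglia (2.25 ± 0.40, adjusted p = 0.0182) and endothelium (2.36 ± 0.43, adjusted p = 0.0282). Usp50, which shares 10.3% with Polr2l, had 6.41, 8.84 and 14.03 CPM against 10.1, 36.04 and 43.5 CPM in oligodendrocytes (1.63 ± 0.25, adjusted p = 0.00203), again with the second-batch stim libraries above the rest. These values are uncertain as measures of the named genes. Without stim 3 the difference was 1.21 for Rpl10-ps3 in microglia, and for Eno1b 1.48 in microglia and 1.45 in endothelium. In microglia, the threshold was not met without nonstim 2 or stim 3 for Rpl10-ps3 (adjusted p up to 0.204), without nonstim 1, nonstim 2 or stim 3 for Eno1b (adjusted p up to 0.347). In oligodendrocytes, there was no call without nonstim 1, nonstim 2, nonstim 3, stim 1, stim 2 or stim 3 for Rps27rt (adjusted p up to 0.123), without stim 3 for Gm2000 (adjusted p up to 0.058). In endothelium, significance was lost without nonstim 1, nonstim 2, nonstim 3, stim 3 or PBS stim 3 for Eno1b (adjusted p up to 0.434).

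**Figure D5:**
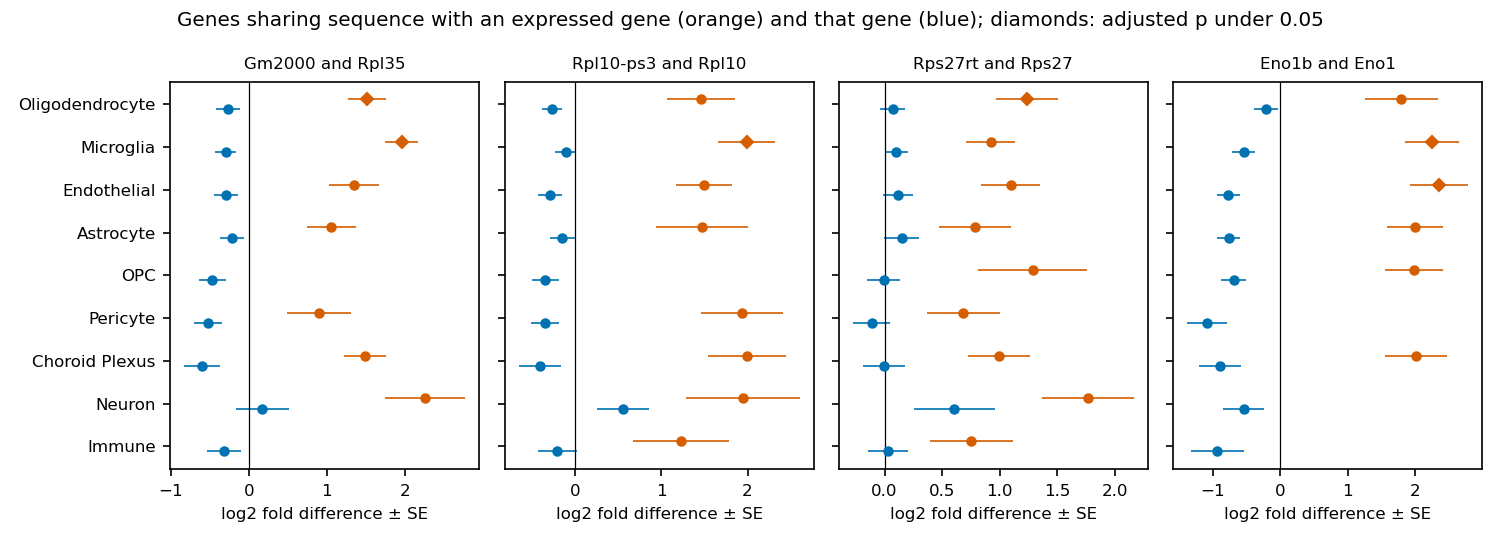
Log2 fold difference with its standard error, stim minus nonstim in cisplatin-treated mice, in each cell type where tested, for 4 genes that share most of their sequence with an expressed gene (orange) and for that gene (blue); diamonds are called. The orange points lie above 0 in each type shown, while Rpl35 and Rpl10 lie below 0 in 8 of the 9 types.

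The comparison of the 2 drug arms was tested as an interaction, the stimulation difference in cisplatin-treated mice minus that in PBS mice. Over the 9 types 17 genes were called (0.0892% of tested genes in oligodendrocytes, 0.0303% in microglia and in pericytes, 0.0152% in neurons, 0.013% in OPCs and 0.00984% in astrocytes), and 13 of them were also called for stimulation in cisplatin-treated mice. In oligodendrocytes the difference was larger with cisplatin for Plin4 by 2.50 (SE 0.40, adjusted p = 0.0138) and for Apod by 0.83 (SE 0.15, adjusted p = 0.0246). In PBS mice these gave -0.85 and -0.17, each below 0. A call was lost without PBS stim 3 for Plin4 (adjusted p up to 0.0703), without nonstim 2, nonstim 3, stim 2, PBS stim 1 or PBS stim 3 for Apod (adjusted p up to 0.0822).

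For Cdkn1a the interaction was 3.48 (SE 0.96, adjusted p = 0.26) and not called, at PBS levels of 2.82, 6.40 and 0.391 CPM (nonstim) and 1.07, 3.84 and 2.67 CPM (stim), and for Cxcl12 it was 1.75 (adjusted p = 0.359). A difference between the arms was thus not shown for these genes.

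Beside the stimulation values, those of cisplatin alone on the unstimulated side are given for oligodendrocyte genes described above; the 2 comparisons share the Cisplatin nonstim libraries. Plin4 had 1.96 with cisplatin, Tspan4 3.01, Cxcl12 3.20, Itgad 2.42, Phyhd1 2.56, Fam107a 1.48, Pnpla2 1.02 and Apod 0.57. Phactr3 had 0.40, Sgk3 0.22, Mt2 0.18 and Mt1 0.41. Among the lower genes Shtn1 had -0.79, Ugt8a -0.46 and Cryab -0.63.

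The makeup of the cell samples was compared as the share of each of 12 cell types, and none differed between the groups by edgeR's quasi-likelihood test on cell numbers. Oligodendrocytes made up 23.4% of cells on average in both groups. Neurons gave the smallest p, with a log2 difference of 0.70 (adjusted p = 0.724), and microglia gave -0.37. In an exact permutation of libraries within the batches, the smallest p this design allows is 0.167.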

How the data were processed

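Hippocampal cells were dissociated and sequenced as 10x Genomics 3′ v3.1 libraries, per the labels, and the submitters' processing notes list Cell Ranger 5.0.0, Scanpy and mm10. For each of these, role and settings were not given in the sources used here. Raw UMI counts per cell and gene were deposited by the authors, with a table of cells after their own filters with library, batch, cell type, cluster, a doublet score, totals of spliced and unspliced signal and a percent of mitochondrial counts per cell. That deposited percent followed the share of mitochondrial genes in the counts poorly (r = -0.0666 over cells), so the share was computed from the counts. Every cell in the deposited table has at least 500 genes.

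Counts were summed per library and the authors' cell type, for libraries with at least 10 cells of the type. Genes passing filterByExpr were tested with edgeR 4.0.16 (R 4.3.3, TMM, glmQLFit and glmQLFTest) over all 12 libraries with 4 groups and batch, and adjusted by Benjamini-Hochberg within a type. Pericytes were fitted over 11 libraries, because PBS stim library 1 held 5 of these cells. Ependymal cells, fibroblasts and progenitors were too few to test. Alternatives were RLE size factors, DESeq2 1.42.0, limma-voom 3.58.1, no filter on low counts, the 6 cisplatin libraries alone, no batch term, the replicate block, the second batch alone, cells with at most 10% mitochondrial UMIs, at least 20 cells a library, and each library left out. On simulated counts of 9909 genes in oligodendrocytes, for the comparison of the cisplatin groups, the test recovered 68.7% of genes changed by a log2 of 1 and 97.0% of those changed by 2. It also called 12 genes that were not changed. The simulated libraries held no batch or cisplatin difference, and recovery with these present was not tested. Deviations of same-numbered libraries had correlations over genes of 0.385, 0.154 and 0.206 in oligodendrocytes, 0.347, 0.179 and 0.194 in microglia and 0.397, 0.100 and 0.209 in choroid plexus. Between libraries of different numbers they reached 0.186, 0.155 and 0.340 in these types. Within the second batch the same-numbered correlations were 0.00995, 0.0431 and -0.0809. A pairing beyond the batch is thus not shown, and the block is printed in these types as an alternative beside a changed call.

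Named genes were, in the 4 types with most calls, the 10 called genes of smallest p in each direction. In other types, all with under 10 calls, they were every called gene. In every type up to 4 called members of each list were added. Cdkn1a, Fkbp5, Plin4 and Cxcl12 were taken whether or not called, though not each is printed for every type where it was tested. Predicted genes were left out of the first 2 parts, exceptions are marked, and some genes are not reported here. The cells and lists were chosen with earlier results of these data known. Gene coordinates are from GENCODE vM21. Promoter windows are from RefSeq, matched by symbol. Shared 31-base words were counted between annotated transcripts.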

Additional observations from a re-analysis of the deposited data

Results flagged for a closer look

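For 13 combinations of a named gene and a cell type the response to stimulation differed between the drug arms by the interaction test (edgeR, adjusted p under 0.05 within a cell type), with values given as log2 differences, cisplatin-treated minus PBS mice. In oligodendrocytes these were Plin4 at 2.50 (adjusted p = 0.0138), Apod at 0.83 (0.0246), Scrg1, a small secreted protein, at 2.15 (0.0365) and Gstp1 at -1.66 (0.0163). Like Plin4, Scrg1 was low in PBS oligodendrocytes, at 13.7, 8.67 and 3.91 CPM (nonstim) and 8.57, 2.44 and 3.43 CPM (stim). Usp50 gave 2.21 and Gm2000 2.17 (adjusted p = 0.0138 for each), and these share sequence with expressed genes. In microglia Gm2000 gave 2.33 (0.00103), Rpl10-ps3 2.72 (0.0286) and Gstp1 -2.45 (0.0168), and in neurons Rps27rt gave 3.20 (0.0318). Ttr gave -4.78 in pericytes (5.57e-05), -5.38 in OPCs (0.00781) and -4.01 in astrocytes (0.0378). The pericyte value was fitted without PBS stim library 1, which held 5 pericytes.

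In oligodendrocytes, the call was not kept without PBS stim 3 for Plin4 (adjusted p up to 0.0703), without nonstim 2, nonstim 3, stim 2, PBS stim 1 or PBS stim 3 for Apod (adjusted p up to 0.0822), without nonstim 1, nonstim 3, stim 2, PBS nonstim 1, PBS nonstim 2, PBS stim 2 or PBS stim 3 for Scrg1 (adjusted p up to 0.206). The call was absent without nonstim 2, nonstim 3, PBS stim 1 or PBS stim 3 for Gstp1 (adjusted p up to 0.0703), without nonstim 2 or PBS stim 3 for Usp50 (adjusted p up to 0.0703), without nonstim 2, stim 3 or PBS stim 3 for Gm2000 (adjusted p up to 0.0703). In microglia, the threshold was not met without nonstim 1, nonstim 2, stim 3, PBS nonstim 1, PBS nonstim 2, PBS stim 2 or PBS stim 3 for Rpl10-ps3 (adjusted p up to 0.222), without nonstim 2, stim 3, PBS nonstim 1 or PBS stim 3 for Gstp1 (adjusted p up to 0.142). In pericytes, leaving out PBS stim 2 or PBS stim 3 leaves 1 PBS stim library, so only the size of the Ttr difference is given for these fits. In OPCs, significance was lost without nonstim 2, stim 2, stim 3 or PBS stim 3 for Ttr (adjusted p up to 0.536). In astrocytes, a call was lost without nonstim 1, nonstim 2, stim 2, stim 3, PBS nonstim 1, PBS nonstim 2, PBS nonstim 3 or PBS stim 3 for Ttr (adjusted p up to 0.775). Without PBS stim 3 the Ttr values were -3.20 in pericytes, -3.20 in OPCs and -1.99 in astrocytes. In OPCs Ttr was -3.57 without nonstim 2, -6.12 without nonstim 3 and -6.03 without PBS stim 2, and in pericytes it was -5.38 without PBS stim 2. Rpl10-ps3 in microglia gave 1.93 without stim 3. In neurons, the call was not kept without nonstim 3, stim 1, stim 2, stim 3, PBS nonstim 1, PBS nonstim 2, PBS stim 1, PBS stim 2 or PBS stim 3 for Rps27rt (adjusted p up to 0.668). Gm2000 in microglia stayed past the threshold with each of the 12 libraries left out, but not without the batch term. These alternatives were chosen after seeing the data. No explanation of these differences was tested.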

How the results depend on the processing

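Each cisplatin group has 3 libraries, and the batch takes 1 degree of freedom of the fit. What depth limits in the rarer cell types was not tested. No called gene changed sign under any alternative run. Of 1346 values of the 136 calls under the settings other than leaving out 1 library, 1006 stayed past the threshold and 340 did not; of 1632 values with 1 library left out, 1107 stayed. Of 282 values of the uncalled always-named genes, 4 passed: Cdkn1a in astrocytes, Cxcl12 in endothelium and Cxcl12 in pericytes without the filter on low counts, and Cxcl12 in endothelium in the 6 cisplatin libraries alone.

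Calls moved as follows. Without the filter on low counts, oligodendrocytes had 328, microglia 97, choroid plexus 15, astrocytes 57, endothelium 72, neurons 2, OPCs 19, other immune cells 69 and pericytes 40, with 699 in all and 341 for the interaction. Without the batch term oligodendrocytes had 15, which was the total, and microglia, astrocytes, endothelium, OPCs, pericytes and the interaction had 0. In the 6 cisplatin libraries alone choroid plexus had 13, astrocytes 8, endothelium 39 and pericytes 10, with 205 in all. With the replicate block oligodendrocytes had 44, microglia 22, choroid plexus 9, astrocytes 5, endothelium 20 and pericytes 12. In the second batch alone choroid plexus had 7, astrocytes 16, endothelium 6, neurons 17 and the interaction 69. DESeq2 called 1 gene in choroid plexus, 2 in endothelium, 11 in other immune cells and 0 in pericytes. Leaving out cells over 10% mitochondrial UMIs gave 64 in oligodendrocytes, 5 in choroid plexus and 5 in astrocytes, and a minimum of 20 cells gave 1 in other immune cells. The alternatives for the interaction were chosen after seeing the data.

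With 1 library left out the counts ran from 29 to 124 in oligodendrocytes, 1 to 16 in microglia, 1 to 21 in endothelium, 0 to 12 in astrocytes, 0 to 8 in OPCs, 1 to 8 in pericytes, 0 to 2 in choroid plexus, 0 to 9 in neurons, 0 to 1 in other immune cells, 49 to 167 in all and 3 to 41 for the interaction. The share of oligodendrocytes with a Cdkn1a UMI was 0.183% (cells thinned to 1000 UMIs) and 1.70% (no thinning) in PBS nonstim, 1.24% (no thinning) in PBS stim, 3.06% and 15.1% in Cisplatin nonstim and 62.4% (no thinning) in Cisplatin stim. The 203 values of cell type shares kept their side of the threshold. In astrocytes and endothelium the lowest correlations of same-numbered libraries were 0.0733 and 0.0747, and the block is given here only. The block kept 71 of the 135 calls it could test. The cause of these changes was not tested.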
